A study of Mus musculus with 10 samples.

Results

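The 140 genes described here surround Mov10 on mouse chromosome 3. They were all genes with an annotated start (mm10) within about 5 Mb on either side of the start of Mov10 and with a level above 1 RPM (the standard normalised read count, which scales every library to the same total) in at least 3 of the 6 RNA-seq libraries. Mov10 itself, Sycp1, Ddx20 and a numbered series of RIKEN testis clones were left out by name, which removed 5 genes. The other 302 genes of the interval gave the 140 members and 162 genes under the minimum. In all, 20240 genes were tested, 883 of them elsewhere on chromosome 3. Of the members, 105 were protein-coding, 53 started below Mov10 and 87 above it, where start means the lowest coordinate of a gene.

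The RNA came from testes of mice at postnatal day 21, 3 wild type (Mov10+/+) and 3 Mov10-/- testis pairs, sequenced as poly(A)-selected stranded libraries. Mov10-/- mice carried a global deletion of helicase exons, made by crossing a floxed allele to Actb-Cre, a recombinase expressed in all tissues, and intercrossing Mov10+/- mice. The floxed allele was made in hybrid embryonic stem cells and the mice had a mixed 129, C57BL/6 and FVB background. Whether the Mov10-/- and wild type testes came from littermates is not given in the sources used here. Another 4 libraries held MOV10 CLIP-seq reads, RNA fragments crosslinked to MOV10 and recovered with it, from wild type testes.

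DNA on either side of a targeted gene is inherited with it, because recombination seldom separates close loci. In mice of mixed background, homozygous mutants therefore tend to share the chromosome segment of the embryonic stem cells around the mutation, while wild type mice tend to carry the other strains' segment. Neighbouring genes are compared for this reason, and also because a change of the locus itself can alter the genes beside it. Effects of the deletion and of linked strain DNA cannot be told apart in this design. The interval holds the mu class of glutathione S-transferases, genes of small GTPase and Wnt signalling, ion channels and several genes used by spermatids.

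RNA-seq libraries held 5083407 to 9230540 reads on genes, so that 1 read was worth 0.108 to 0.197 RPM. Mov10, the check of the labels, had 96.4 to 119 RPM in wild type libraries and 26.6 to 29.0 RPM in Mov10-/- libraries, counted over all exons of the gene including the deleted ones, a log2 fold change of -2.0 (SE 0.13, adjusted p = 0.0047, edgeR quasi-likelihood test). Mov10-/- replicate 3 was the shallowest RNA-seq library, with 57.2% of its reads not aligned against 26.5% to 35.9% in the other 5. Markers of spermatids, the haploid germ cells that appear around this age, were lower in Mov10-/- testes: 24 of 28 tested had an unadjusted p under 0.05, and their summed level was 315 to 785 RPM against 768 to 2250 RPM in wild type, although 0 of them passed an adjusted p of 0.05 (edgeR). None of these markers was at 0 in every library. Of 15 spermatocyte markers, 0 had an unadjusted p under 0.05, and their sums were 1694 to 2263 RPM and 1811 to 1988 RPM. Of 11 tested Sertoli cell markers, 4 were higher, with sums of 901 to 1049 RPM against 720 to 849 RPM. Of the markers of spermatogonia, peritubular and endothelial cells, and macrophages, 1 of 11, 1 of 8 and 1 of 9 were higher, and 0 of 7 Leydig cell markers differed at that p. The summed peritubular and endothelial markers were 529 to 633 RPM in Mov10-/- and 423 to 482 RPM in wild type libraries. In whole testis, fewer cells of a type and less RNA per cell cannot be told apart.

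None of the 140 genes around Mov10 differed between genotypes at an adjusted p under 0.05, where 0.0741% of all 20240 genes tested did (15 genes, edgeR quasi-likelihood test, Benjamini-Hochberg adjustment over all of them). The smallest adjusted p among the members was 0.14. At an unadjusted p under 0.05, 19 members (13.6%) were lower in Mov10-/- testes, against 12.0% of all genes tested, and 6 (4.29%) were higher, against 5.88%. Both shares were near those of the whole table. All 3 Mov10-/- libraries lay below all 3 wild type libraries for 23 members (16.4%, against 14.1% of all genes tested) and above them for 14 (10%, against 11.9%). The median log2 fold change of the members was 0.01, beside 0.03 for all genes tested, and 102 members (72.9%) lay within 0.5 of 0 on the log2 scale, against 74.7% of all genes tested. Among the 138 tested genes that started 5 to 10 Mb from Mov10, 13 (9.42%) were lower and 3 (2.17%) higher.

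Other tools called some members at the same threshold. DESeq2 called 8 lower and 1 higher, where it called 5.46% and 0.812% of all genes with an adjusted p, and the exact test of edgeR called 9 lower (6.43%), where it called 5.48% of all genes lower, and 0 higher (background 0.711%). Without wild type replicate 3, the quasi-likelihood test called 5 (Tent5c, Ubl4b, Chia1, 4930406D18Rik and Gm42538), all lower (3.57%), against 2.74% of all genes. The counts at an unadjusted p also turned on single libraries: without Mov10-/- replicate 2 there were 6 lower and 1 higher (background 4.84% and 3.74%), without Mov10-/- replicate 4 there were 12 lower (background 7.72%), and without wild type replicate 1 or 2 there were 3 or 2 higher (background 5.83% and 3.02%).

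**Figure D1:**
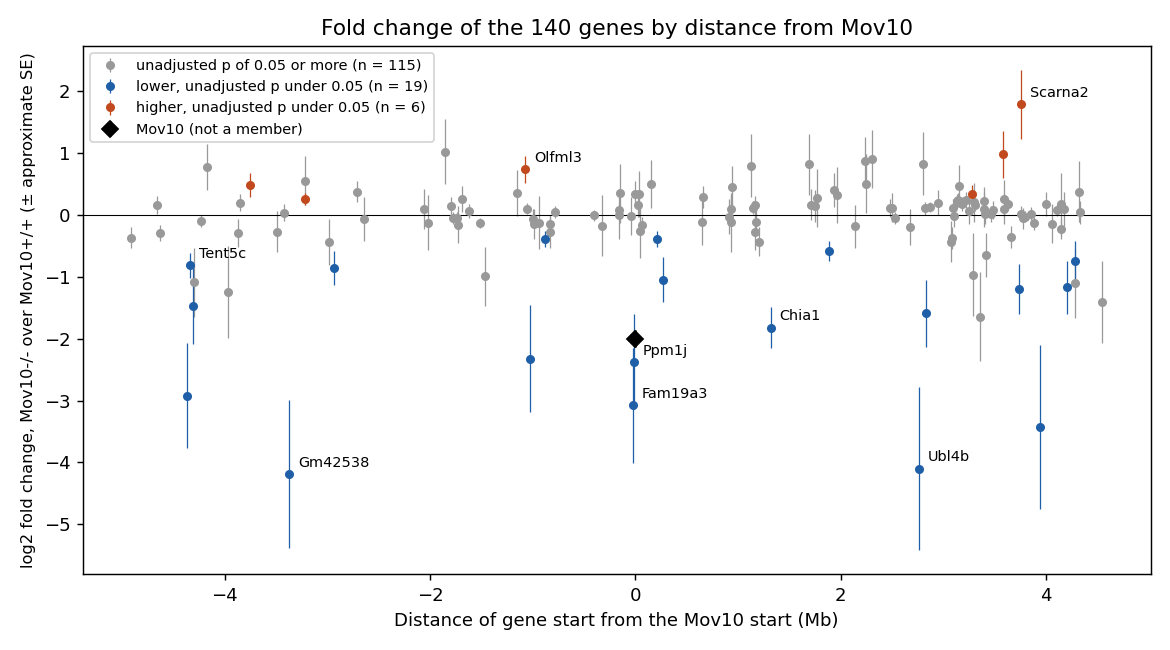
Fitted log2 fold change of Mov10-/- over Mov10+/+ (y axis, error bars are approximate standard errors) of the 140 genes against the distance of their start from the Mov10 start in Mb (x axis), with Mov10 as a black diamond. The 19 blue points (lower, unadjusted p under 0.05) occurred in every distance bin out to 5 Mb, 5 of the 6 orange points (higher) lay 3 to 4 Mb from Mov10, and most grey points lay near 0.

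The members differed in how precisely they were measured. The approximate standard error of the log2 fold change had a median of 0.26, and 70 members had one under 0.25. Wild type level per length, in RPM per kilobase of exon, ran from 0.078 to 67.5 with a median of 6.93. The 5 highest were Gstm5 (67.5), Gstm1 (65.2), Gstm7 (50.1), Gstm2 (48.2) and Spag17 (45.4), the last a central pair protein of the sperm axoneme. Of the 140, 109 were above 1 RPM in all 6 libraries. Another 4 (Chia1, Gm42538, Gm37859 and Gm12474) were above it in the 3 wild type libraries only, and so they entered the test through the group where they were high. All 4 are among the 19 lower members. At the edge of the rule, 9 members were above 1 RPM in exactly 3 libraries and 8 genes left out were above it in 2. Of the 162 genes under the minimum, 57 had 0 reads in every RNA-seq library, 67 had 1 to 9 reads over all 6 and 38 had 10 or more, the most being 103. None with 10 or more had 0 reads in all libraries of a genotype.

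Close to Mov10, lower genes stood beside genes whose libraries overlapped between the genotypes. Of the 16 members that started within 500 kb of the Mov10 start, 4 were lower at an unadjusted p under 0.05 (25%, background 12.0%) and 0 were higher (background 5.88%), and their median log2 fold change was -0.01. In all 4 the Mov10-/- libraries lay wholly below the wild type libraries (25%, background 14.1%), and the other 12 overlapped.

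Rhoc, a small GTPase of the actin cytoskeleton, ends 377 bases from the 3′ end of Mov10 and is its closest neighbour here. It had 26.1, 16.9 and 23.5 RPM in wild type replicates 1, 2 and 3 and 31.2, 24.6 and 27.9 RPM in Mov10-/- replicates 2, 3 and 4, a log2 fold change of 0.34 (SE 0.21, adjusted p = 0.43, edgeR). The groups overlapped. Capza1, an actin capping subunit and the nearest gene on the other side, had 55.7 to 98.8 RPM in wild type and 79.4 to 96.2 RPM in Mov10-/- libraries, with a log2 fold change of 0.16 (SE 0.20).

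Ppm1j, which encodes a protein phosphatase of the PP2C family with testis expression, started 13.8 kb from Mov10. Wild type replicates 1, 2 and 3 had 18.2, 61.2 and 12.8 RPM, and Mov10-/- replicates 2, 3 and 4 had 3.46, 9.82 and 5.28 RPM. The groups did not overlap, and the highest wild type library was replicate 2. The log2 fold change was -2.37 (SE 0.77, adjusted p = 0.20, edgeR). Fam19a3, a gene for a secreted chemokine-like protein, started 27.4 kb from Mov10 on the strand opposite to Ppm1j, and its annotated span shares 785 bases with that of Ppm1j but no exon bases. It had 4.34, 15.7 and 3.31 RPM in wild type and 0.494, 1.64 and 0.737 RPM in Mov10-/- libraries, in the same order of replicates. The log2 fold change was -3.08 (SE 0.92, adjusted p = 0.19, edgeR). In both genes the libraries stood in the same order within each genotype, with wild type replicate 2 and Mov10-/- replicate 3 highest.

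The other lower neighbours were Cttnbp2nl, a component of phosphatase signalling complexes, at 94.4 ± 14.2 RPM (SD, n = 3) in wild type and 71.4 ± 3.73 RPM (n = 3) in Mov10-/- testes, and 4930564D02Rik, at 8.59 ± 0.80 RPM and 4.25 ± 1.87 RPM. Their log2 fold changes were -0.39 (SE 0.13) and -1.05 (SE 0.37). Another 4 protein-coding neighbours had overlapping groups. Lrig2, a transmembrane regulator of growth factor signalling, had a log2 fold change of -0.01 (SE 0.09). Slc16a1, the lactate and pyruvate transporter MCT1, had 0.07 (SE 0.13), and St7l had -0.16 (SE 0.12). Wnt2b, a Wnt ligand, had 3.87 to 12.2 RPM in wild type and 10.4 to 11.7 RPM in Mov10-/- libraries, with a log2 fold change of 0.50 (SE 0.39). The remaining 6 were noncoding transcripts or pseudogenes (Gm43696, Gm43582, Gm43581, Gm6485, Gm42658 and Gm42659) with mean levels under 3 RPM in both genotypes and log2 fold changes from -0.26 to 0.35.

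**Figure D2:**
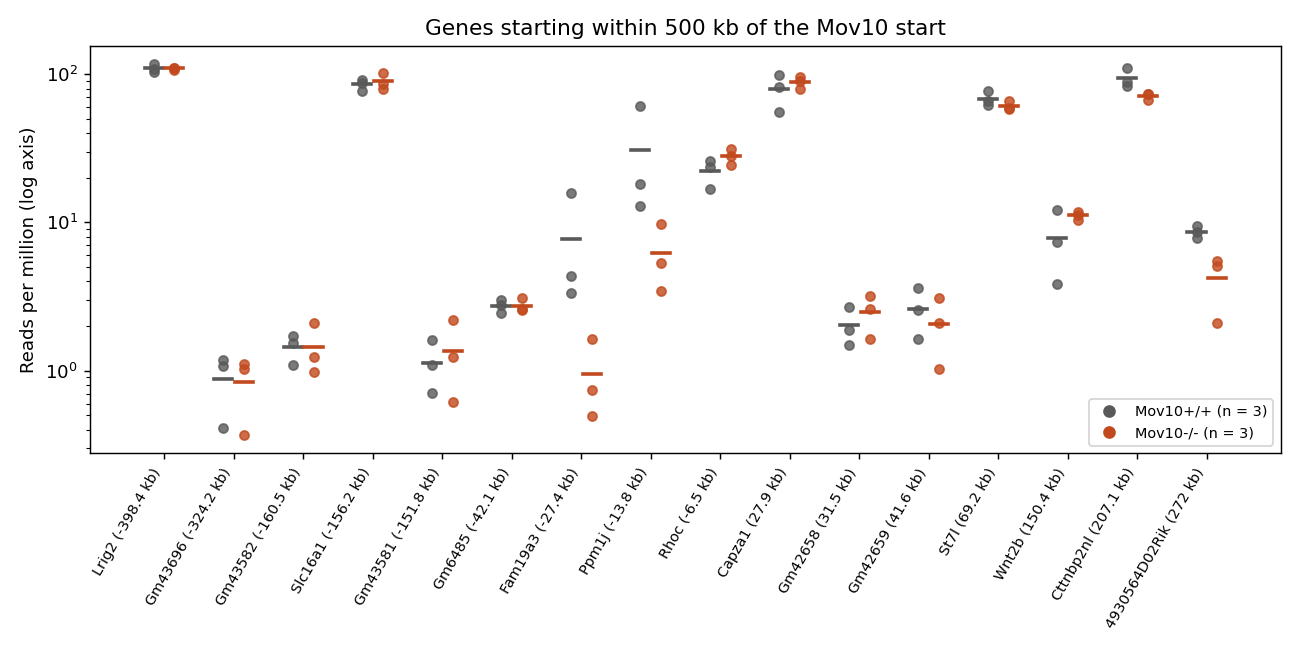
Level in RPM (y axis, log scale) of the 16 genes starting within 500 kb of the Mov10 start, in order along the chromosome with the distance in kb, for the 3 Mov10+/+ (grey) and 3 Mov10-/- (orange) libraries; points are libraries and bars are group means. The groups separated for Fam19a3, Ppm1j, Cttnbp2nl and 4930564D02Rik, and overlapped for the other 12.

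With increasing distance the share of lower genes did not fall steadily. It was 25% of 16 genes within 0.5 Mb, 7.69% of 13 at 0.5 to 1 Mb, 11.1% of 27 at 1 to 2 Mb, 15% of 20 at 2 to 3 Mb, 6.82% of 44 at 3 to 4 Mb and 25% of 20 at 4 to 5 Mb, beside 12.0% of all genes tested. These bins hold between 1 and 5 lower genes each. Of the 6 higher genes, 5 started 3 to 4 Mb from Mov10 (11.4% of 44, background 5.88%) and 1 at 1 to 2 Mb. The median absolute log2 fold change was 0.29 within 0.5 Mb, 0.13 at 0.5 to 1 Mb and 0.37 at 4 to 5 Mb, and 0.24 for both the members and all genes tested. Below Mov10, 9 of 53 members (17%) were lower and 3 (5.66%) higher, and above it 10 of 87 (11.5%) and 3 (3.45%).

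**Figure D3:**
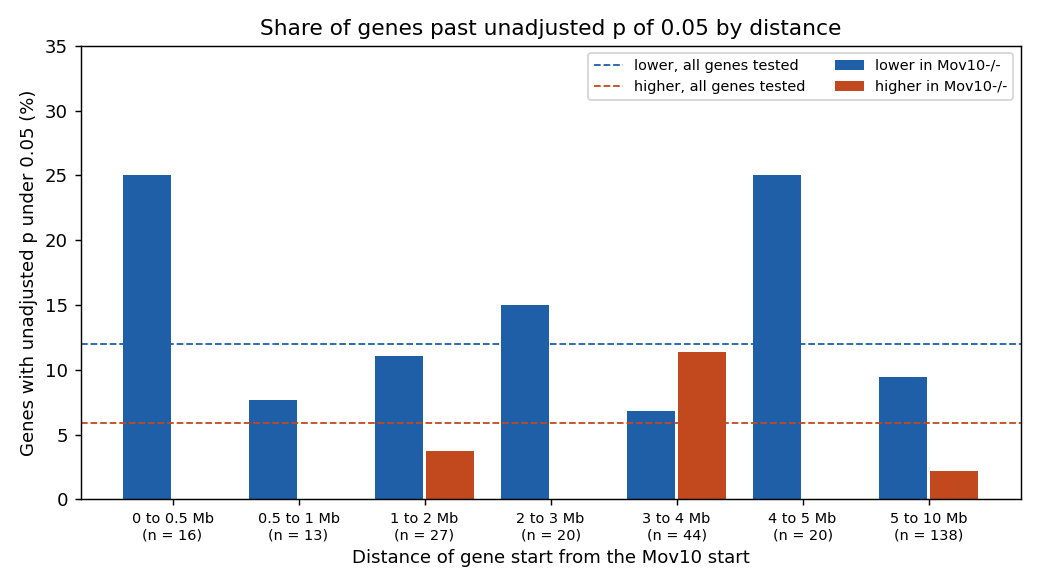
Percentage of genes with an unadjusted p under 0.05 (y axis) that were lower (blue) or higher (orange) in Mov10-/- testes, by distance of the gene start from the Mov10 start in Mb (x axis); dashed lines are the shares over all 20240 genes tested, 12.0% and 5.88%. The lower share was 25% both within 0.5 Mb and at 4 to 5 Mb.

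The genes of the interval listed here for germ-cell, sperm or cilium roles all had negative log2 fold changes. The list is not complete, for example without Ubl4b and Gstm5, and was made with earlier results of these data known. Of 7, 3 were lower at an unadjusted p under 0.05 (42.9%, background 12.0%), 0 were higher, and the median log2 fold change was -0.39, beside 0.03 for all genes tested. Tent5c, a cytoplasmic poly(A) polymerase needed for sperm integrity, had 195, 283 and 163 RPM in wild type replicates 1, 2 and 3 and 108, 130 and 125 RPM in Mov10-/- replicates 2, 3 and 4. The groups did not overlap, with a log2 fold change of -0.82 (SE 0.20, adjusted p = 0.19, edgeR). Rsbn1, named for the round spermatids in which it is found, had 113, 137 and 111 RPM against 91.8, 81.4 and 99.7 RPM, a log2 fold change of -0.39 (SE 0.12, adjusted p = 0.20, edgeR). The groups did not overlap there either. Of the annotated exon bases of Rsbn1, 30.6% overlap Phtf1os on the other strand, and the strand setting of the counting is not given in the sources used here. Phtf1os itself had a log2 fold change of -0.27.

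Ppm1j, given above, was the third. The other 4 did not pass: Spag17 had -0.37 (SE 0.16, adjusted p = 0.29), Pifo, a regulator of primary cilium disassembly, -0.44 (SE 0.23), Henmt1, the methyltransferase of piRNA 3′ ends, -0.23 (SE 0.16), and Phtf1 -0.15 (SE 0.10) (edgeR). With the spermatid marker score of each library as a covariate, the log2 fold changes of Ppm1j, Spag17, Pifo and Phtf1 were 0.01, 0.08, 0.25 and 0.04, and those of Tent5c, Rsbn1 and Henmt1 were -0.17, -0.24 and -0.03. The part of spermatid number in these values was not tested, since score and genotype move together.

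Ubl4b, a ubiquitin-like gene expressed in late male germ cells, had the lowest log2 fold change of the protein-coding members. It had 10.9, 43.5 and 3.74 RPM in wild type and 0.618, 2.86 and 0.369 RPM in Mov10-/- libraries. The log2 fold change was -4.10 (SE 1.32, adjusted p = 0.20, edgeR). With the spermatid score as a covariate it was -0.63, and that of Fam19a3, given above, was -0.62. The groups did not overlap, but wild type replicate 3 was close to Mov10-/- replicate 3. Aknad1 had 6.80, 28.6 and 1.28 RPM against 0.741, 1.23 and 1.23 RPM. Wild type replicate 3 was just above the highest Mov10-/- library, and the log2 fold change was -3.42 (SE 1.32, adjusted p = 0.24, edgeR). With the spermatid score the value for Aknad1 was 0.31. Slc22a15, an organic cation transporter, had 91.1 ± 31.1 RPM and 50.7 ± 13.1 RPM (SD, n = 3 each), a log2 fold change of -0.86 (SE 0.28). Slc25a54, a mitochondrial carrier, had 27.5 ± 6.39 RPM and 16.9 ± 6.29 RPM, and its groups overlapped.

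Promoter windows are shown for 4 genes that were lower together at an unadjusted p under 0.05: the close neighbour Ppm1j, the germ-cell genes Tent5c and Rsbn1, and Ubl4b. They were chosen after their values were seen. Each window is 300 bases from RefSeq (GRCm38.p6), 250 before and 50 after the start, read 5′ to 3′ on the gene's strand. Capitals mark 2 short motifs searched on both strands: TGACG, the core of the cyclic AMP response element bound by CREM, a regulator of spermatid genes, and GTTGCC, the core of the X-box bound by RFX factors of ciliary genes. The windows are at chr3:104780806-104781105 (+) for Ppm1j, chr3:100489143-100489442 (-) for Tent5c, chr3:103913870-103914169 (+) for Rsbn1 and chr3:107555024-107555323 (-) for Ubl4b.
Ppm1j: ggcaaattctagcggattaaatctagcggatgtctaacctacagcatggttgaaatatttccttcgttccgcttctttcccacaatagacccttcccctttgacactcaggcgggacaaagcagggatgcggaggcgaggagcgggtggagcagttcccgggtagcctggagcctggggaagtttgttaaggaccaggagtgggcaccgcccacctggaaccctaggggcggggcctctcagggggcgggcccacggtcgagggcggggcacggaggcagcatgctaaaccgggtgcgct
Tent5c: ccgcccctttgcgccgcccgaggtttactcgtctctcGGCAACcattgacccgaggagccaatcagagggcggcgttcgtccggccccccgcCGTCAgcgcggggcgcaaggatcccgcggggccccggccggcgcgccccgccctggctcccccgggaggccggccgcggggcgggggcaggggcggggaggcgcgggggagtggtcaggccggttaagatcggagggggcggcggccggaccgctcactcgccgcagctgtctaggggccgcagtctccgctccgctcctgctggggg
Rsbn1: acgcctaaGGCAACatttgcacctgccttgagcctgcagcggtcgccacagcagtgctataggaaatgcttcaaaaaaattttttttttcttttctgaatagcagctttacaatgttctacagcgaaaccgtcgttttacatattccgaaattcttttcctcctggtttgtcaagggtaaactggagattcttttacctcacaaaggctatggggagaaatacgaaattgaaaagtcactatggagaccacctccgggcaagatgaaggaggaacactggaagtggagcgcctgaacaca
Ubl4b: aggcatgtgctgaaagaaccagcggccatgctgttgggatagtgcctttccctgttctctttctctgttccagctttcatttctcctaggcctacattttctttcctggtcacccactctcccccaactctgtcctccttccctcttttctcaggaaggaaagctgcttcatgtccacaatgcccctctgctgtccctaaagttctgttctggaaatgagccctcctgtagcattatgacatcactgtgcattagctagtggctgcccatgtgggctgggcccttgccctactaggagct

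Tent5c held both short motifs, Rsbn1 held GTTGCC, and neither was in the windows of Ppm1j and Ubl4b. The full element TGACGTCA, which contains TGACG, was in none of the 4. Promoter windows were matched for 99 of the 140 members, 129 windows in all. TGACGTCA was in 2.33% of them and in 1.79% of all 32851 RefSeq windows, TGACG in 21.7% and 20.8%, and GTTGCC in 9.3% and 12.5%. Of 19 windows of the lower members, 8 held TGACG (42.1%), 3 held GTTGCC (15.8%) and 0 held TGACGTCA. Of 5 windows of the higher members, 2 held GTTGCC (40%) and 0 held TGACG or TGACGTCA. These sets are small, and some windows belong to alternative starts of the same gene. GC content ran from 44.0% in Rsbn1 to 78.0% in Tent5c.

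Chia1, which encodes acidic mammalian chitinase, an enzyme of stomach and lung, had the smallest adjusted p of all members. It was low in every library, with 13, 14 and 12 reads in wild type replicates 1, 2 and 3 and 4, 2 and 3 reads in Mov10-/- replicates 2, 3 and 4. This gave 1.52, 1.91 and 1.28 RPM against 0.494, 0.409 and 0.369 RPM, and the groups did not overlap. The log2 fold change was -1.82 (SE 0.33, adjusted p = 0.14, edgeR). With the spermatid score as a covariate it was -1.38. Chia1 passed the 1 RPM minimum through the wild type libraries only, so that it was selected by the group where it is high. Lrif1, a nuclear receptor interacting protein of heterochromatin, was well covered, at 89.8, 121 and 83.9 RPM against 68.1, 59.1 and 67.5 RPM. Its groups did not overlap, with a log2 fold change of -0.58 (SE 0.16, adjusted p = 0.19, edgeR).

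Noncoding transcripts and other biotypes made up 35 members, of which 6 were lower (17.1%) and 2 higher (5.71%) at an unadjusted p under 0.05. Over all genes tested that were not protein-coding these shares were 20.7% and 3.19%, and over protein-coding genes 9.50% and 6.66%. Gm42538, an antisense transcript whose exons overlap Igsf3 over 33.1% of their bases, had 28, 74 and 13 reads in wild type and 0, 4 and 1 in Mov10-/- libraries. That is 3.28, 10.1 and 1.39 RPM against 0, 0.818 and 0.123 RPM, with a log2 fold change of -4.19 (SE 1.20, adjusted p = 0.19, edgeR). Igsf3 itself had a log2 fold change of 0.03. The transcript 4930406D18Rik had 9.50, 22.6 and 4.49 RPM against 0.618, 2.86 and 1.60 RPM, and Gm15886, antisense to the kinase gene Hipk1, 7.03, 22.4 and 4.70 RPM against 0.741, 4.91 and 1.84 RPM. Hipk1 had a log2 fold change of 0.10. Gm12474, Gm37859 and Gm43221, together with the protein-coding Gm10961, were the remaining lower members, with mean wild type levels of 1.5, 1.59, 2.94 and 3.48 RPM. In 10 of the 19 lower members no Mov10-/- library had more than 17 reads.

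Part of the lower members followed an order of libraries. Within each genotype, 8 of the 19 (42.1%) followed the spermatid marker score exactly, which was 2.04, 0.69 and 0.05 in wild type replicates 2, 1 and 3 and -0.10, -1.09 and -1.58 in Mov10-/- replicates 3, 4 and 2, and 0 followed the opposite order. Among all 2429 lower genes the share was 38.3%, and among all genes tested 11%. Wild type replicate 2 was the highest wild type library for 18 of the 19 (94.7%, against 91.9% of all lower genes). Mov10-/- replicate 2 was the lowest Mov10-/- library for 12 (63.2%, against 70.6%). The median log2 fold change of the 19 was -1.47, and -0.38 in the fit with the score. For all 2429 lower genes it was -1.61 and -0.35. Since these genes were chosen by the same comparison, the values describe them and were not tested.

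**Figure D4:**
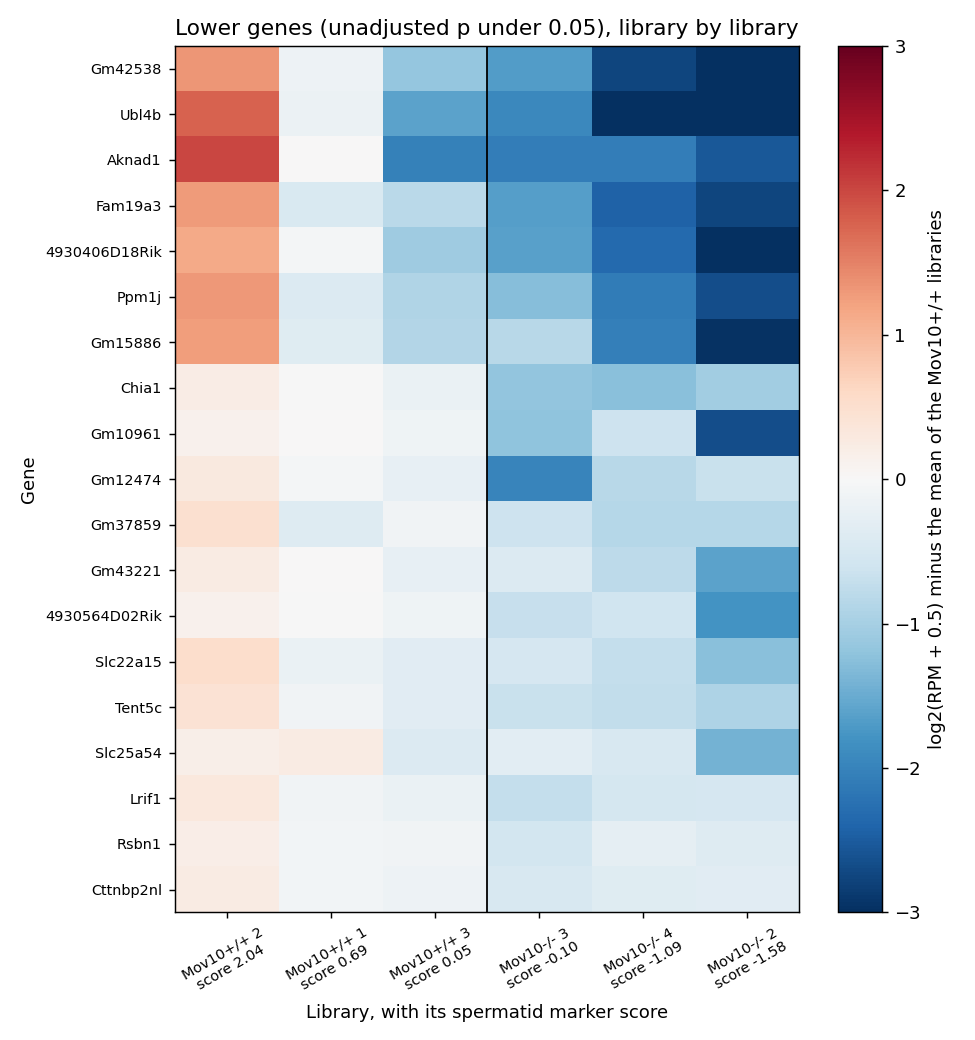
Level of the 19 lower members (1 line per gene) in each library (columns, wild type to the left of the line), as log2(RPM + 0.5) minus the wild type mean, with libraries of each genotype in falling order of spermatid marker score; colours saturate at 3 in either direction. Most lower genes were darkest blue in Mov10-/- replicate 2, which had a score of -1.58, and red in wild type replicate 2, which had 2.04.

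Among the 6 higher members, Olfml3, a secreted matrix glycoprotein, had 31.0, 54.8 and 52.5 RPM in wild type and 88.7, 64.4 and 74.3 RPM in Mov10-/- libraries. The groups did not overlap, and the log2 fold change was 0.74 (SE 0.22, adjusted p = 0.19, edgeR). Ampd2, an AMP deaminase, had 55.9 ± 7.25 RPM and 71.1 ± 6.21 RPM (SD, n = 3 each), a log2 fold change of 0.34 (SE 0.14). Ptgfrn, a tetraspanin partner, had 30.1 ± 6.22 RPM and 41.8 ± 6.61 RPM, a log2 fold change of 0.48 (SE 0.20). With the spermatid score these 3 had 0.65, 0.05 and -0.08. Summed markers of Sertoli cells and of peritubular and endothelial cells, given above, were also higher in every Mov10-/- library than in any wild type library, and their part in these values was not tested.

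Scarna2, a small Cajal body RNA that guides modification of spliceosomal RNA, had the largest positive log2 fold change, 1.79 (SE 0.55, adjusted p = 0.20, edgeR). It had 2.23, 1.36 and 7.16 RPM in wild type and 12.0, 20.9 and 9.09 RPM in Mov10-/- libraries. The highest value was in Mov10-/- replicate 3, the shallowest RNA-seq library, and wild type replicate 3 was close to Mov10-/- replicate 4. The libraries were poly(A)-selected, and how evenly they recover such a small RNA was not tested. The processed transcript Gm12522, also higher, had 9, 3 and 6 reads in wild type and 13, 7 and 10 in Mov10-/- libraries.

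The mu class glutathione S-transferases, detoxifying enzymes encoded by a cluster that starts 3101 to 3246 kb above Mov10, overlapped between genotypes in 5 of 6 genes. Most genes tested overlapped too, since 14.1% lay wholly below and 11.9% wholly above. Of the 6, 0 were lower or higher at an unadjusted p under 0.05 (edgeR, background 12.0% and 5.88%). No result is read from counts of 6 genes. The median log2 fold change was 0.20, beside 0.03 for all genes tested. Gstm1 had 98.9, 97.3 and 91.8 RPM in wild type and 112, 132 and 98.8 RPM in Mov10-/- libraries, a log2 fold change of 0.24 (SE 0.12). Gstm6 had 0.24 (SE 0.11), Gstm7 0.23 (SE 0.11) and Gstm2 0.18 (SE 0.12). The Mov10-/- libraries lay wholly above the wild type libraries in Gstm6 alone. Gstm5, a form found in brain and testis, had 81.4, 101 and 76.5 RPM against 69.3, 106 and 83.4 RPM, a log2 fold change of -0.01 (SE 0.18), and 0.49 with the spermatid score. Gstm4 had 20.5 ± 0.62 RPM and 20.8 ± 5.12 RPM. Close copies share sequence: 18.9% of the 50-base stretches of Gstm1 transcripts also occur in transcripts of other genes, 5.97% of those of Gstm6 and 5.66% of those of Gstm2, but 0 of Gstm4 and Gstm5, so reads can be lost or split between copies.

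**Figure D5:**
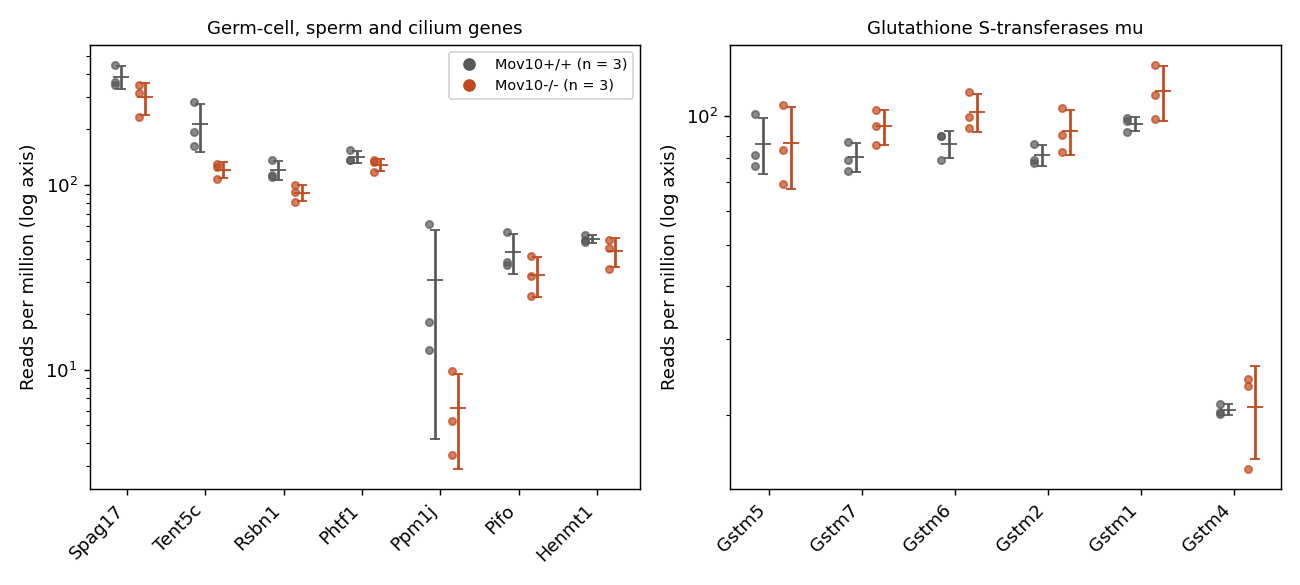
Level in RPM (y axes, log scale) of the 7 germ-cell, sperm and cilium genes (left) and the 6 glutathione S-transferases mu (right) in 3 Mov10+/+ (grey) and 3 Mov10-/- (orange) libraries; points are libraries, bars with caps are the mean and SD. Orange means lie below grey means in all 7 genes of the left panel, and the SD bars of the groups overlap in all 6 genes of the right panel.

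The remaining groups each held at most 1 lower and 1 higher gene at an unadjusted p under 0.05 (background 12.0% and 5.88%). In groups this small, no result about a group is read from these counts. Of 14 genes of transcription, RNA and protein synthesis or turnover, Lrif1 was lower and 0 were higher, with a median log2 fold change of 0.01. Sars, the seryl-tRNA synthetase, had 0.18 (SE 0.10), and Trim33, a ubiquitin ligase of transforming growth factor signalling, had -0.13 (SE 0.08). Of 11 small GTPases, G proteins and their regulators, 0 passed in either direction (edgeR). Gpr61 had 2.81, 6.13 and 1.07 RPM against 0.618, 0.818 and 1.47 RPM, and the guanine nucleotide exchange factor Vav3 had 9.50, 26.6 and 5.99 RPM against 7.16, 3.07 and 4.18 RPM. Gnai3, an inhibitory G protein subunit, had 114 ± 5.34 RPM and 127 ± 5.49 RPM (SD, n = 3 each).

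Of 12 transporters and ion channels, Slc22a15 was lower and 1 gene was higher (8.33% each, background 12.0% and 5.88%). The log2 fold change was positive in 10 of the 12, beside 10863 of all 20240 genes tested. Kcna3, a voltage-gated potassium channel, did not pass (unadjusted p = 0.0501, edgeR). It had 2.70, 1.36 and 3.85 RPM against 5.19, 5.32 and 4.67 RPM, without overlap. The log2 fold change of Kcna3 was 0.88 (SE 0.38, adjusted p = 0.28, edgeR). Casq2, the calsequestrin of cardiac muscle, did not pass either, with 35.3 ± 6.21 RPM and 45.8 ± 4.90 RPM. Of 13 immune and cell surface genes, Chia1 was lower and Ptgfrn higher. In 5330417C22Rik the level was 259 ± 42.6 RPM and 203 ± 42.9 RPM, and the groups overlapped. A mixed group listed as Wnt and planar polarity, growth factors and transcription factors held 8 genes. In it Cttnbp2nl, the phosphatase complex component, was lower and Olfml3, the matrix glycoprotein, higher. Of 15 genes of membrane traffic and metabolism, Ampd2 was higher and 0 were lower. Gdap2 had 60.6 ± 7.38 RPM and 49.4 ± 3.16 RPM without overlap (log2 fold change -0.30, SE 0.13), and Eps8l3 had 96.1 ± 13.3 RPM and 75.0 ± 16.2 RPM with overlap.

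As a share of all reads on genes, the 140 members took 0.67% ± 0.0095 (SD, n = 3) in wild type and 0.651% ± 0.018 (n = 3) in Mov10-/- libraries. In MOV10 CLIP-seq they took 34 of 4934 reads on genes in replicate 5 (0.689%, exact 95% binomial interval 0.478% to 0.962%). Replicates 1, 2 and 3 of the CLIP-seq differed by less than sampling noise and were not taken as independent samples. They held 19, 18 and 16 reads on the members, or 0.481%, 0.526% and 0.47% of reads on genes, with exact 95% intervals from 0.269% at the lowest to 0.83% at the highest. Intervals cover counting error only.

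CLIP-seq reads fell on 28 members (20.0%), beside 18.1% of all genes tested. Of the 28, 19 had only 1 or 2 reads summed over the 4 libraries, with each near-identical library counted. St7l, 69.2 kb from Mov10, had the most reads of the members in the near-identical libraries, 6, 4 and 4, and 2 in replicate 5. Sort1, the sorting receptor sortilin, had 3, 3 and 3 reads there and 6 in replicate 5, where it had the most. In the RNA-seq, Sort1 had 175 ± 21.2 RPM in wild type and 184 ± 31.2 RPM in Mov10-/- testes, a log2 fold change of 0.08 (SE 0.14). The groups of both genes overlapped, and 166 exon bases of St7l are shared with Capza1 on the other strand. Of the 19 lower members, 4 (Tent5c, Ppm1j, Lrif1 and Aknad1) had a CLIP-seq read, each a single read. For the 112 members with 0 CLIP-seq reads, a count of 0 allows up to 608 RPM in replicate 5 and 881 RPM in replicate 3, so binding at a lower level was not detectable at this depth.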

How the data were processed

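RNA-seq was made from 3 wild type and 3 Mov10-/- testis pairs at postnatal day 21, and MOV10 CLIP-seq from wild type testes (4 libraries). Per the labels and the study's methods, the authors aligned RNA-seq reads to mm10 with STAR and deposited raw read counts per Ensembl (version 99) gene from HTSeq. Tool versions and the strand setting are not given in the sources used here. Entries that name no gene (unaligned, outside genes, ambiguous) were left out, 52.8% to 71.7% of each RNA-seq file and at least 99.9% of each CLIP-seq file.

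Coordinates and exon lengths came from GENCODE M21 (mm10), which held 55154 of the 55421 genes. The 20240 genes that exceeded 1 RPM in 3 or more RNA-seq libraries were fitted together with edgeR 4.0.16 in R 4.3.3: quasi-likelihood test after trimmed mean (TMM) scaling, with p-values adjusted by Benjamini-Hochberg over all of them. RPM uses TMM-scaled library sizes, except in CLIP-seq and the 1 RPM minimum. Standard errors are approximate, from each log2 fold change and its F statistic. The 6 RNA-seq libraries came from 6 testis pairs, and p-values measure the spread between them. The spermatid score is the mean over 28 markers of log2(RPM + 1), each centred on its mean over the 6 libraries. The script was tested on simulated counts.

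Alternatives were DESeq2 1.42.0, limma 3.58.1 (voom), edgeR's exact test and legacy fit, other scalings and minimums, a replicate block, the spermatid score as covariate, each library left out, and other windows. Named genes were those within 500 kb of Mov10, the 8 with the smallest p in each direction, and the Gstm and germ-cell genes. Also named were those with at least 10 CLIP-seq reads summed over the 4 libraries, with each near-identical library counted. The 5 highest per length and the 3 with the smallest p in each other group were named too. The other genes with an unadjusted p under 0.05, and Igsf3, Hipk1 and Phtf1os as overlapping partners, were named after their values were seen, and 2 genes that the rule names are not reported here. The members and lists were chosen with earlier results of these data known.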

Additional observations from a re-analysis of the deposited data

How the results depend on the processing

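Of the 19 lower members, 10 had 17 reads or fewer in every Mov10-/- library, and depth limits their fold changes. With 3 libraries a group, calls at an adjusted p also depended on the test. Score and genotype move together, so the fit with the score has less power for genotype.

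Of the 140 members, 9 were called at an adjusted p under 0.05 by DESeq2 and 9 by the exact test of edgeR, against 0 by the quasi-likelihood test, its legacy form and voom. Over all 20240 genes these tests called 1244, 1254, 15, 1 and 2, in the same order. The replicate block called 6, all lower (4.29%, against 5.37% of all genes), with 2 higher at an unadjusted p under 0.05 (1.43%, against 2.36%). Only replicate numbers 2 and 3 occur in both genotypes, and the deviations of same-numbered libraries correlated at -0.476 and -0.346. The labels do not say what the numbers mark. These correlations cannot settle it, since libraries of a genotype also differ in spermatid score. With the spermatid score, 4 members were lower (background 3.74%) and 2 higher (background 3.37%) at an unadjusted p, and the median log2 fold change was -0.0917; the cause was not tested. With only the 109 genes above 1 RPM in all 6 libraries, 9 were lower and 7 higher at an unadjusted p under 0.05. Under that minimum 2716 of all 17449 genes passed in either direction. Smaller windows hold fewer genes: within 1 Mb 5 of 29 were lower and 0 higher, and 6 had Mov10-/- libraries wholly below and 0 wholly above wild type. Within 2 Mb of Mov10 these counts were 8, 1, 10 and 2 of 56 genes, and within 10 Mb 32 lower, with 38 wholly below and 28 wholly above, of 278. Over all genes tested the shares were 12.0% lower, 5.88% higher, 14.1% wholly below and 11.9% wholly above.

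With each library left out in turn, 6 to 27 members were lower, 1 to 8 higher and 0 to 5 called at an adjusted p. Of all 20240 genes, 1736 to 3891 then had an unadjusted p under 0.05 in either direction, and 0 to 608 were called. Fewer libraries overlap less often, and 24 to 34 members then lay wholly below and 16 to 31 wholly above, the 31 without Mov10-/- replicate 3. The matching shares over all genes were not taken, so no result about the members is read from these counts. Counts under the other scalings, the lower minimum and protein-coding members alone stayed within 1.5 times those reported.

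The sign of some named genes turned. Lrig2 had a log2 fold change of 0.0009 with library totals only. Gm43582, at 0.0005 as reported, had -0.0074 with DESeq2, -0.0403 with voom, -0.0005 with the legacy fit, -0.0073 with RLE size factors and -0.0044 without a minimum. With the replicate block, Gm43581 had -0.453, Capza1 -0.0494, Gm42659 0.0396 and Gstm4 -0.0477. With the spermatid score, the values that turned were -0.7331 in Gm43582, -0.1911 in Slc16a1, -0.2862 in Gm43581, 0.1736 in Gm6485, 0.0139 in Ppm1j, -0.125 in Rhoc, -0.4325 in Gm42658, -0.084 in Ptgfrn, -0.0592 in Casq2, 0.4917 in Gstm5, -0.2108 in Gstm4, 0.0788 in Spag17, 0.0397 in Phtf1, 0.2475 in Pifo, 0.3087 in Gpr61, 0.2492 in Vav3, 0.0259 in Slc22a15, 0.1096 in 5330417C22Rik, 0.0003 in Gdap2 and 0.0822 in Eps8l3. Leaving out each library gave ranges across 0 for Lrig2 (-0.0438 to 0.0388), Gm43696 (-0.5505 to 0.2401), Gm43582 (-0.4354 to 0.267), Slc16a1 (-0.0334 to 0.1362), Gm43581 (-0.1983 to 0.7196), Gm6485 (-0.1093 to 0.0392), Capza1 (-0.0648 to 0.3452), Gm42659 (-0.6436 to 0.0246), Gstm5 (-0.1696 to 0.1241), Gstm4 (-0.0369 to 0.2111) and Sort1 (-0.0747 to 0.1542). Of the genes named after their values were seen, Aknad1 (0.3062) and Gm15886 (0.1559) also turned with the spermatid score. The cause was not tested.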
